A study of Mus musculus with 16 samples.

Results

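The 10 genes described here encode the machinery that presents peptides on MHC class II molecules. They were chosen by name, with earlier results of these data known, and are H2-Aa, H2-Ab1, H2-Eb1, Cd74, H2-DMa, H2-DMb1, H2-DMb2, H2-Oa, H2-Ob and Ciita. In GRCm38, 8 of them lie on chromosome 17 between bases 34092340 (H2-Oa) and 34316674 (H2-Eb1), Ciita at chr16:10480059-10528418 and Cd74 on chromosome 18. All 10 were among the 21965 genes of the count table and among the 13811 that passed the filter on low counts. RNA of whole terminal ileum was sequenced in 16 male C57BL/6 mice, each the source of 1 library. The pair-fed (PF) mice were 4 WT and 4 fat-1, and those fed ethanol (EtOH) were 3 WT and 5 fat-1, all littermates aged 8 to 10 weeks when the feeding began. The fat-1 mice were heterozygous (Fat1+/- in the labels) for a transgene from C. elegans, an n3 fatty acid desaturase that turns n6 into n3 fatty acids and that is expressed in all tissues. All mice received a Lieber-DeCarli liquid diet. In the EtOH groups its ethanol was raised in steps to 6% (v/v) for the last 3 weeks, and PF mice were pair-fed an isocaloric diet with maltose dextrin in place of ethanol. The study asked how the ileum responds to EtOH in each genotype.

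MHC class II molecules are pairs of an alpha and a beta chain that show peptides from ingested material to CD4 T cells. The invariant chain (Cd74) fills the groove of new pairs until H2-DM exchanges its last fragment for a peptide, and H2-DO holds H2-DM back. Ciita is the coactivator that switches these genes on, and it does so through factors bound to conserved letters in their promoters, the X and Y boxes. B cells, dendritic cells and macrophages carry class II molecules, and the enterocytes of the small intestine can carry them too. H2-DO is known mainly from B cells. C57BL/6 mice make no Ea chain, so that the H2-Eb1 chain lacks its partner in this strain.

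The promoter letters of these genes are shown as a description only. In the RefSeq promoter table of GRCm38.p6, 7 of the 10 genes had a window from 250 bases before to 50 bases after the transcription start. H2-Ab1, Cd74 and Ciita had no window. The Y box was searched as ATTGG on both strands, which 37.4% of all 32851 promoter windows hold, and 7 of the 7 genes held it on their own strand. For H2-DMa it lay 198 bases before the start of 1 of 2 windows, and the other window held none. In the other 6 genes it lay 43 to 90 bases before the start. The core of the X box was searched as GNNACNNATG (8.97% of all windows), a form set after the sequences were seen, and the longer form CCNNGNNACNNATG was in 0.749% of all windows. The next lines give 65 bases of each of the 6 genes, from GRCm38.p6, 5′ to 3′ on the strand of the gene. Capitals mark the Y box near the end and the fixed letters of the X box where it was found.
H2-Aa (chr17:34287862-34287926, minus strand): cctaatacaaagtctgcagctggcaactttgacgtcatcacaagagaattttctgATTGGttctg
H2-Eb1 (chr17:34305753-34305817, plus strand): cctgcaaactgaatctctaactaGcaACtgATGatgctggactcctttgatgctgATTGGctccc
H2-DMb1 (chr17:34153075-34153139, plus strand): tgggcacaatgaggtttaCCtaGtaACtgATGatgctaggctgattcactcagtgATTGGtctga
H2-DMb2 (chr17:34145104-34145168, plus strand): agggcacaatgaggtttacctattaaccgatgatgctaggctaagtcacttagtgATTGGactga
H2-Oa (chr17:34092281-34092345, plus strand): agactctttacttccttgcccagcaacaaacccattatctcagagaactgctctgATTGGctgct
H2-Ob (chr17:34238793-34238857, plus strand): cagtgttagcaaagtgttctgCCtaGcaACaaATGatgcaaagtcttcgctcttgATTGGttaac
X box core letters followed by Y box letters, with 20 to 40 bases from start to start, were in H2-Eb1, H2-DMb1 and H2-Ob and in 0.116% of all windows. H2-DMb1 and H2-DMb2 are neighbouring copies of 1 gene, yet only H2-DMb1 held the X box letters as searched. In H2-Oa a core match lay 140 bases before the start, outside the stretch shown. These matches are descriptions of letters, not of bound factors.

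Each library had 8422645 to 11438539 reads on genes, and levels are given as CPM (counts per 1000000, over the TMM-adjusted library size), in which 3 counts are 0.246 to 0.421. Epithelial genes were high in every library, but the markers of gut region were not even. The ileal bile acid genes Fabp6 and Slc10a2 were nearly absent in fat-1 PF mice 2 and 4 (Fabp6 26.1 and 3.31 CPM, Slc10a2 7.58 and 3.56 CPM), against a lowest Fabp6 of 118 and Slc10a2 of 394 CPM elsewhere, both in fat-1 EtOH mouse 3. The list of 9 ileum markers also held Gata4, Gata6, Enpep and Anpep, so that its sum is not a measure of the ileum alone. The markers summed to 1121 and 2086 CPM in fat-1 EtOH mice 3 and 4, to 9326 and 9779 CPM in fat-1 PF mice 2 and 4, and to more in the other 12. In the 14 mice other than fat-1 EtOH 3 and 4, a large part of that sum was the brush border gene Anpep, which was at 64.5 and 83.4 CPM in fat-1 EtOH mice 3 and 4, 6675 and 7703 CPM in fat-1 PF mice 2 and 4, and 9018 CPM or more elsewhere. The sum and the bile acid genes Fabp6 and Slc10a2 put these 4 mice in different orders. Car1, a gene of the large intestine, reached 4041 CPM in WT EtOH mouse 2 and 11157 and 12208 CPM in fat-1 EtOH mice 3 and 4, against at most 79.1 CPM in the other 13. The 7 large intestine markers that passed the filter, of 10, summed to 1281 to 2872 CPM in PF, 2880 to 9024 in WT EtOH and 2792 to 16398 CPM in fat-1 EtOH mice, with Aqp8 or Car1 at 0 in some mice. Gata4, which is expressed in the proximal small intestine, was at 25.6 CPM or more in every PF mouse and at 1.11 CPM or less in every EtOH mouse. The part that gut region plays in the results was not tested. Libraries are numbered 1 to 8 in PF and 9 to 16 in EtOH mice, so that diet and library order cannot be told apart.

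Per kilobase of exon, with all annotated exons of a gene merged, Cd74 had the highest level of the 10 genes in WT PF mice. The H2-DO chains had the lowest. The order depends in part on these lengths. In mean CPM, H2-Aa (726) was above H2-Ab1 (640), and H2-Ob (12.5) was above H2-DMb2 (7.66). Cd74 was at 1053 ± 142 CPM per kb (SD, n = 4). The chains followed, with H2-Ab1 at 249 ± 21.6, H2-Eb1 at 206 ± 18.3 and H2-Aa at 191 ± 24.8 CPM per kb. H2-Eb1 and H2-Aa, neighbours in this order, lay within their spread of each other. H2-DMb1 (43.7 ± 3.95) stood above H2-DMa (19.9 ± 2.69 CPM per kb), the other chain of H2-DM. That gap goes with their merged exons of 1681 and 3448 bases. In reads the 2 chains were about equal, with 102.5 to 117.8 reads of H2-DMb1 per 100 of H2-DMa in WT PF mice. Ciita (4.78 ± 0.499) and H2-DMb2 (4.39 ± 1.56 CPM per kb) overlapped. The H2-DO chains H2-Ob (2.32 ± 1.03) and H2-Oa (2.17 ± 0.926 CPM per kb) were also within their spread of each other.

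**Figure D1:**
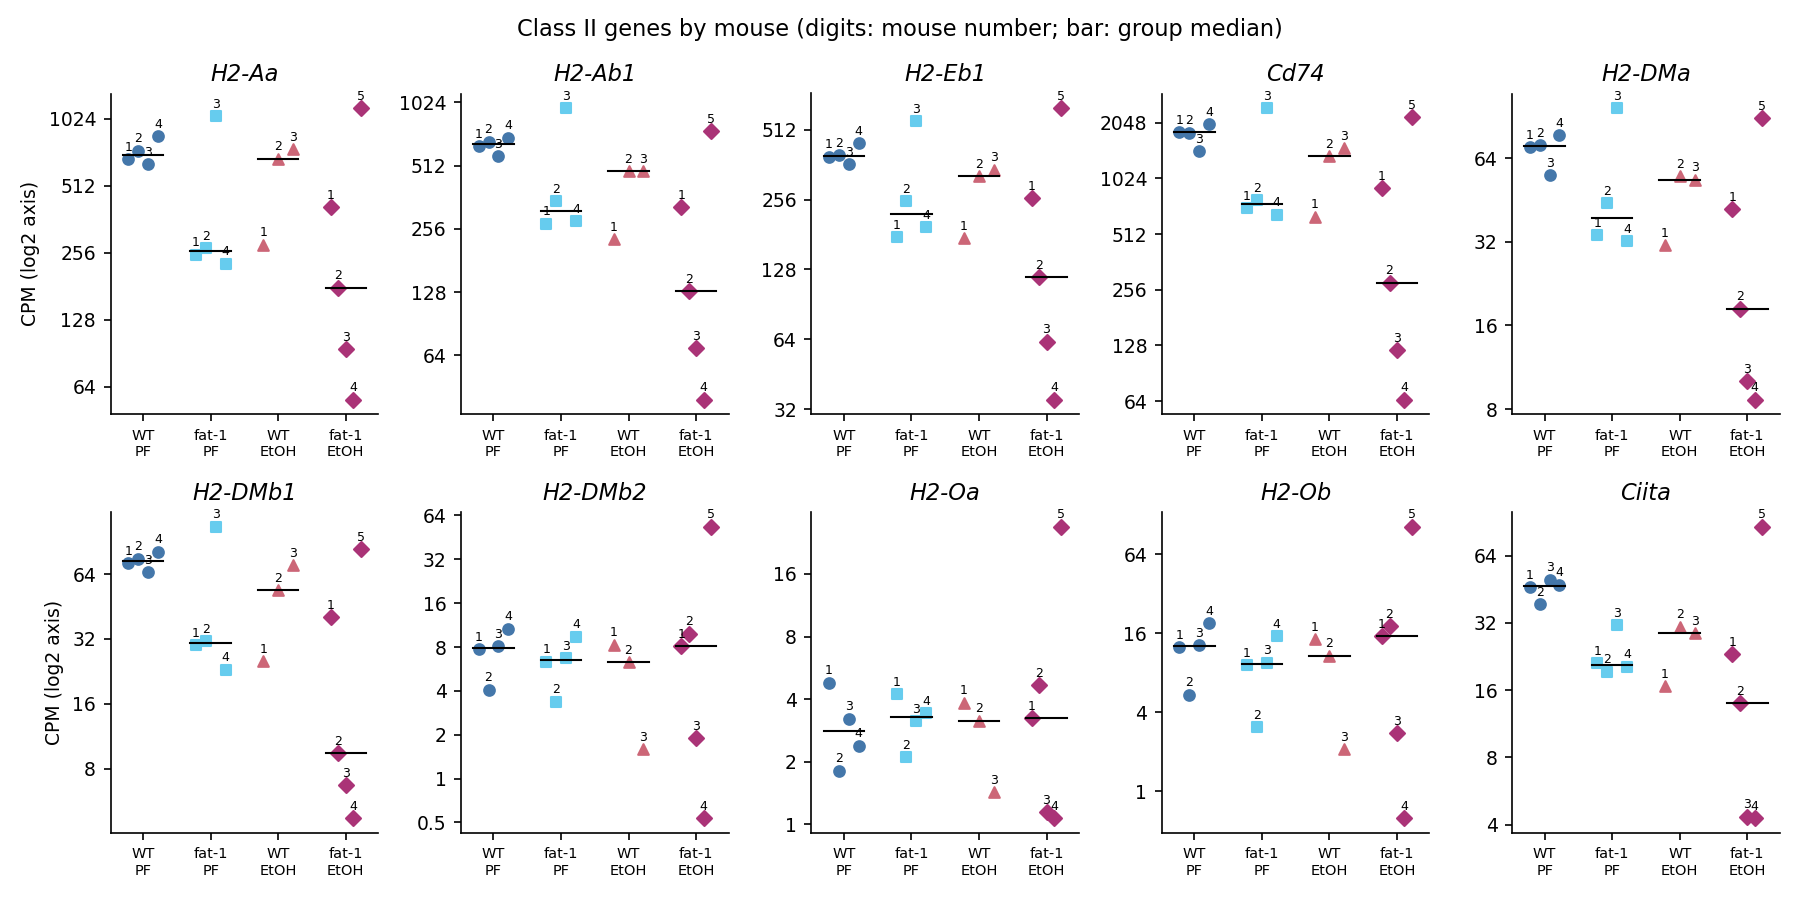
CPM (log2 axis) of the 10 class II genes in each of the 16 mice, by group; each point is 1 mouse with its number, and each bar is the group median. H2-Aa, H2-Ab1, H2-Eb1, Cd74, H2-DMa and H2-DMb1 are low in 3 of 4 fat-1 PF mice and Ciita in all 4, these genes spread widely in fat-1 EtOH mice, and H2-DMb2, H2-Oa and H2-Ob are highest in fat-1 EtOH mouse 5.

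In WT mice all 10 class II genes had lower means under EtOH, and none of them was a differentially expressed gene (DEG, adjusted p of 0.05 or less). H2-Ab1, the beta chain of I-A, was at 633, 666, 565 and 695 CPM in WT PF mice 1 to 4 and at 229, 479.8 and 482 CPM in WT EtOH mice 1 to 3. H2-Aa, its alpha chain, was at 674, 735, 641 and 855 against 278, 678 and 746 CPM. H2-Ab1 was lower in every WT EtOH mouse than in any WT PF mouse, whereas for H2-Aa the highest WT EtOH mice lay within the WT PF range, and mouse 1 was the lowest for both. Cd74 was at 1827, 1806, 1435 and 2004 CPM in WT PF and 637, 1347 and 1487 CPM in WT EtOH mice, again lowest in WT EtOH mouse 1. H2-Eb1 was at 391, 399, 363 and 449 against 175, 324 and 344 CPM, and H2-DMa at 69.9, 71.2, 55.5 and 77.5 against 31.2, 55.2 and 53.4 CPM. In both of these genes every WT EtOH mouse lay below every WT PF mouse. H2-DMb1 was at 71.7, 75.4, 65.4 and 81.3 against 25.2, 54.1 and 70.3 CPM, which overlap. Ciita, the coactivator of the set, was at 46.2, 38.8, 49.9 and 47.4 against 16.7, 30.8 and 28.7 CPM. For Ciita the groups did not overlap, and its difference was the largest of the 10 on the log2 scale. The H2-DO chain H2-Ob went another way over the mice, at 12.6, 5.43, 13 and 19.02 against 14.3, 10.8 and 2.10 CPM, with its low value in WT EtOH mouse 3. H2-DMb2, at 7.76, 4.07, 8.11 and 10.7 against 8.33, 6.30 and 1.60 CPM, and H2-Oa, at 4.81, 1.81, 3.22 and 2.39 against 3.85, 3.15 and 1.43 CPM, were lowest in the same EtOH mouse.

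The log2 fold changes of WT EtOH against WT PF ran from -0.85 ± 0.76 (SE) for Ciita to -0.13 ± 0.91 for H2-Oa, with a median of -0.53 beside 0.01 over all genes tested. Some of these rested on single mice. Without WT EtOH mouse 3, H2-Oa was at 0.20 and H2-Ob at 0.01, and without WT EtOH mouse 1, H2-Aa was at -0.03. In the quasi-likelihood test of edgeR, adjusted by Benjamini-Hochberg, 0 of 10 were DEGs, where 0.0796% of all genes tested were. Their adjusted p-values were 0.644 to 0.964, 0 had an unadjusted p under 0.05, and DESeq2 also called 0. The difference of H2-Ab1 was -0.69 ± 0.78 and that of H2-DMa -0.56 ± 0.65. Without WT EtOH mouse 2, the WT library with high Car1 (4041 CPM), they were -0.85 and -0.70. The groups did not overlap, with WT EtOH lower, for 4 of the 10 genes (H2-Ab1, H2-Eb1, H2-DMa and Ciita), against 12.1% of all genes tested. These 4 moved together from mouse to mouse, so that they do not count as 4 separate observations. Ciita was a DEG (log2 fold change -0.83 ± 0.20, adjusted p = 0.0376 in edgeR) in 1 of the alternatives run, the fit of these 2 groups alone, which called 1103 of 13250 genes (8.32%). In whole ileum RNA, fewer cells of a type and less RNA per cell cannot be told apart.

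In fat-1 mice the class II genes differed more between mice of 1 diet than between the diets. H2-Ab1 was at 271, 345, 961 and 278 CPM in fat-1 PF mice 1 to 4 and at 323, 129, 69.1, 39.3 and 749 CPM in fat-1 EtOH mice 1 to 5. Cd74 was at 705, 783, 2457 and 653 against 909, 279.8, 120.3, 65.2 and 2199 CPM. Fat-1 PF mouse 3 and fat-1 EtOH mouse 5 stood high for both genes, and fat-1 EtOH mice 3 and 4 were the lowest of all 16 mice. H2-Aa had the same high and low mice, at 251, 268, 1054 and 229 against 409, 179, 94.4, 56.02 and 1143 CPM, as did H2-Eb1, at 177, 251, 556 and 195 against 259.5, 119, 62.4, 35.1 and 635 CPM. The chains of the peptide exchange factor H2-DM had the same high and low mice. H2-DMa was at 33.7, 43.9, 96.8 and 32.2 CPM in fat-1 PF and 42, 18.4, 10.1, 8.65 and 88.8 CPM in fat-1 EtOH mice. H2-DMb1, its beta chain, was at 29.9, 31.3, 106 and 23.1 against 40.3, 9.44, 6.72, 4.73 and 83.2 CPM. The groups overlapped for all 6 of these genes. In the EtOH group the highest mouse exceeded the lowest by 10.3-fold (H2-DMa) to 33.7-fold (Cd74), against 1.23-fold to 1.40-fold over the WT PF mice for the same 6 genes.

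The genes known from B cells differed from these in fat-1 PF mouse 3. H2-Ob was at 9.12, 3.09, 9.57 and 15.1 CPM in fat-1 PF mice and 15.1, 18.1, 2.79, 0.624 and 104 CPM in fat-1 EtOH mice. H2-Oa, the other H2-DO chain, was at 4.24, 2.11, 3.14 and 3.44 against 3.23, 4.68, 1.15, 1.07 and 27.03 CPM. H2-DMb2 was at 6.36, 3.37, 6.70 and 9.45 against 8.08, 9.87, 1.89, 0.535 and 53.7 CPM. In all 3 genes fat-1 EtOH mouse 5 stood alone at the top and fat-1 PF mouse 3 did not stand out. Ciita was at 21.2, 19.4, 31.3 and 20.4 in fat-1 PF and 23.2, 13.9, 4.35, 4.28 and 86.2 CPM in fat-1 EtOH mice, high in both fat-1 PF mouse 3 and fat-1 EtOH mouse 5.

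Of the 10 genes 0 were DEGs in fat-1 EtOH against fat-1 PF mice, where edgeR called 37.4% of all genes tested and DESeq2 also called 0 of the 10. None had an unadjusted p under 0.05, and the adjusted p-values were 0.223 to 0.833. The log2 fold changes ran from -0.82 ± 0.67 (SE) for H2-Ab1 to 1.60 ± 1.01 for H2-Ob, with a median of -0.33 beside 0.05 over all genes tested. For 4 genes (H2-DMb2, H2-Oa, H2-Ob and Ciita) the value was positive, and for the other 6 it was negative. These values rested on single mice. Without fat-1 EtOH mouse 5, H2-Ab1 (-1.71, adjusted p = 0.0361) and H2-DMa (-1.37, adjusted p = 0.039 in edgeR) were DEGs, H2-DMb2 and H2-Oa turned to -0.33 and -0.34, and H2-Ob was at 0.00. Without fat-1 EtOH mice 3 and 4, the fat-1 libraries with high Car1, H2-Ob (2.32, adjusted p = 0.037), H2-Oa (1.86, adjusted p = 0.0409) and H2-DMb2 (1.90, adjusted p = 0.0458 in edgeR) were DEGs instead. The same fits called 5102 of 13715 genes (37.2%) without fat-1 EtOH mouse 5 and 4187 of 13608 (30.8%) without fat-1 EtOH mice 3 and 4, so that the 2 and 3 class II genes called of 10 were not above the share of all genes. Without fat-1 PF mouse 3 the value of H2-Ab1 was -0.17 and that of H2-Aa turned to 0.61. Without fat-1 PF mice 2 and 4, the libraries with little Fabp6 and Slc10a2, H2-Ab1 was at -1.23 with an adjusted p of 0.31 in edgeR.

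**Figure D2:**
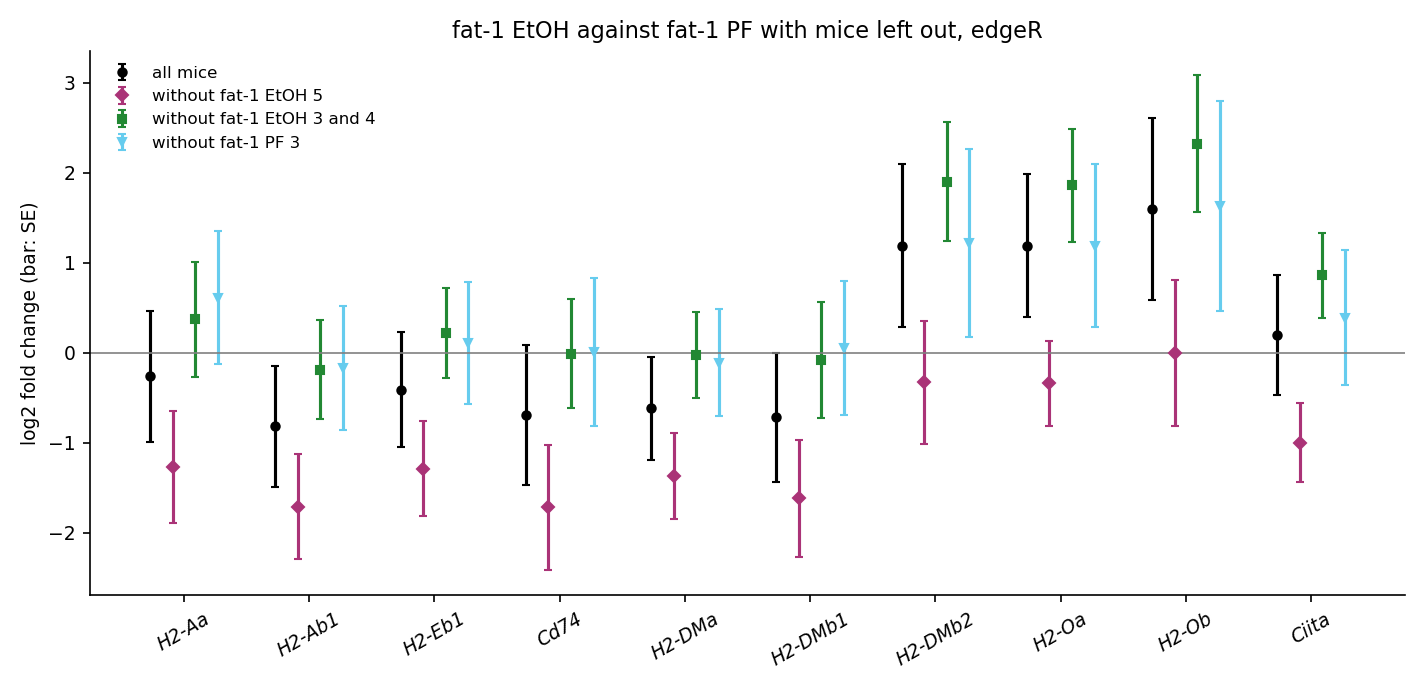
Log2 fold change of fat-1 EtOH against fat-1 PF mice (y axis, bars are SE of the edgeR fit) for the 10 class II genes with all mice and with named mice left out. Without fat-1 EtOH mouse 5 the values of H2-Ab1 and H2-DMa fall to -1.71 and -1.37, and without fat-1 EtOH mice 3 and 4 those of H2-DMb2, H2-Oa and H2-Ob rise to 1.90, 1.86 and 2.32.

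Markers of B cells moved with the values of H2-Ob, H2-Oa and H2-DMb2. All 12 B cell markers passed the filter, and their summed level ran from 51.3 to 161 CPM in WT PF, 17.3 to 123 in fat-1 PF, 18.3 to 132 in WT EtOH and 5.26 to 812 CPM in fat-1 EtOH mice. The highest level was that of fat-1 EtOH mouse 5 and the lowest that of fat-1 EtOH mouse 4, in which Cd22 and Fcer2a had no count. Blk and Cr2 had none in fat-1 PF mouse 2. Cd79a, a chain of the B cell receptor complex, was at 11.9, 13.2, 0.984, 0.357 and 74.2 CPM in fat-1 EtOH mice 1 to 5, in the order of H2-Ob from mouse to mouse. The T cell markers (10 of 10 passed the filter, none at 0) also peaked in fat-1 EtOH mouse 5, at a summed 245 CPM against 45.2 to 64.8 CPM in PF mice and 36.2 to 59.2 CPM in WT EtOH mice. Dendritic cell markers (9 of 10 passed) summed to 25.5 to 32.5 CPM in WT PF, 18.6 to 44.2 in fat-1 PF, 18.9 to 24.9 in WT EtOH and 8.12 to 116 CPM in fat-1 EtOH mice. Macrophage markers (11 of 11 passed) summed to 306 to 346, 278 to 524, 268 to 295 and 161 to 428 CPM in the same groups, and in fat-1 EtOH against fat-1 PF mice 1 of them rose (Cd163) and 1 fell (Mertk). The part of these cell types in the results was not tested beyond the covariate that follows. With the mean level of the B cell markers as a covariate, H2-Ab1 was at -1.58 (adjusted p = 0.0368 in edgeR) and H2-Ob at 0.05 in fat-1 EtOH against fat-1 PF mice, in a fit that called 41.1% of all genes.

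Among PF mice, 3 of 4 fat-1 mice had low values of most class II genes and 1 had high values, and the test called none of the genes. Ciita was at 46.2, 38.8, 49.9 and 47.4 CPM in WT PF and 21.2, 19.4, 31.3 and 20.4 CPM in fat-1 PF mice. It was the single gene of the 10 whose groups did not overlap with fat-1 PF lower, against 2.62% of all genes tested. Fat-1 PF mice 1, 2 and 4 lay below every WT PF mouse in H2-Aa, H2-Ab1, H2-Eb1, Cd74, H2-DMa, H2-DMb1 and Ciita, and fat-1 PF mouse 3 lay above every WT PF mouse in these genes apart from Ciita. The log2 fold changes of fat-1 PF against WT PF were -0.98 ± 0.70 (SE) for Ciita, -0.69 ± 0.77 for H2-Aa and -0.46 ± 0.71 for H2-Ab1, and the median of the 10 was -0.45 beside 0.02 over all genes. In edgeR 0 of 10 were DEGs (adjusted p 0.605 to 0.983), 0 had an unadjusted p under 0.05, and edgeR called 0% of all genes tested. DESeq2 called 0 of the 10 and 189 of all 13811 genes. Without fat-1 PF mouse 3, Ciita was at -1.17 and H2-Aa at -1.55. Without fat-1 PF mice 2 and 4, the value of H2-Aa was -0.16, that of H2-Ab1 -0.06 and that of Ciita -0.81.

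Between the EtOH groups, fat-1 EtOH mice spanned the WT EtOH mice for all 10 genes, and 0 were DEGs in edgeR or in DESeq2, against 0.00724% of all genes tested. Their log2 fold changes ran from -0.79 (H2-DMb1) to 1.63 (H2-Ob), with a median of -0.41 beside 0.04 over all genes, and 0 had an unadjusted p under 0.05. Medians of fat-1 EtOH and WT EtOH mice were 3.23 and 3.15 CPM for H2-Oa, 8.08 and 6.30 for H2-DMb2 and 15.1 and 10.8 for H2-Ob. Fat-1 EtOH mouse 5 was far above the other mice in these genes, with H2-Ob at 104 CPM. The diet difference averaged over both genotypes ran from -0.76 (H2-Ab1) to 0.57 (H2-Ob). It made 0 of 10 genes DEGs, against 35.9% of all genes tested, with 0 at an unadjusted p under 0.05 and 0 in DESeq2. Without fat-1 EtOH mouse 5, Ciita, H2-Ab1 and H2-DMa were DEGs, in a fit that called 36.7% of all genes. The interaction of genotype and diet called 0 of 10 genes and 0% of all genes in edgeR, with 0 of the 10 at an unadjusted p under 0.05 and 0 called by DESeq2. Its largest value was that of H2-Ob, at 2.07 ± 1.52 (SE), and Ciita was at 1.04 ± 1.01. The 2 diet comparisons were therefore not shown to differ between the genotypes, and standard errors of 0.86 to 1.52 on the log2 scale leave room for wide differences in these genes.

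**Figure D3:**
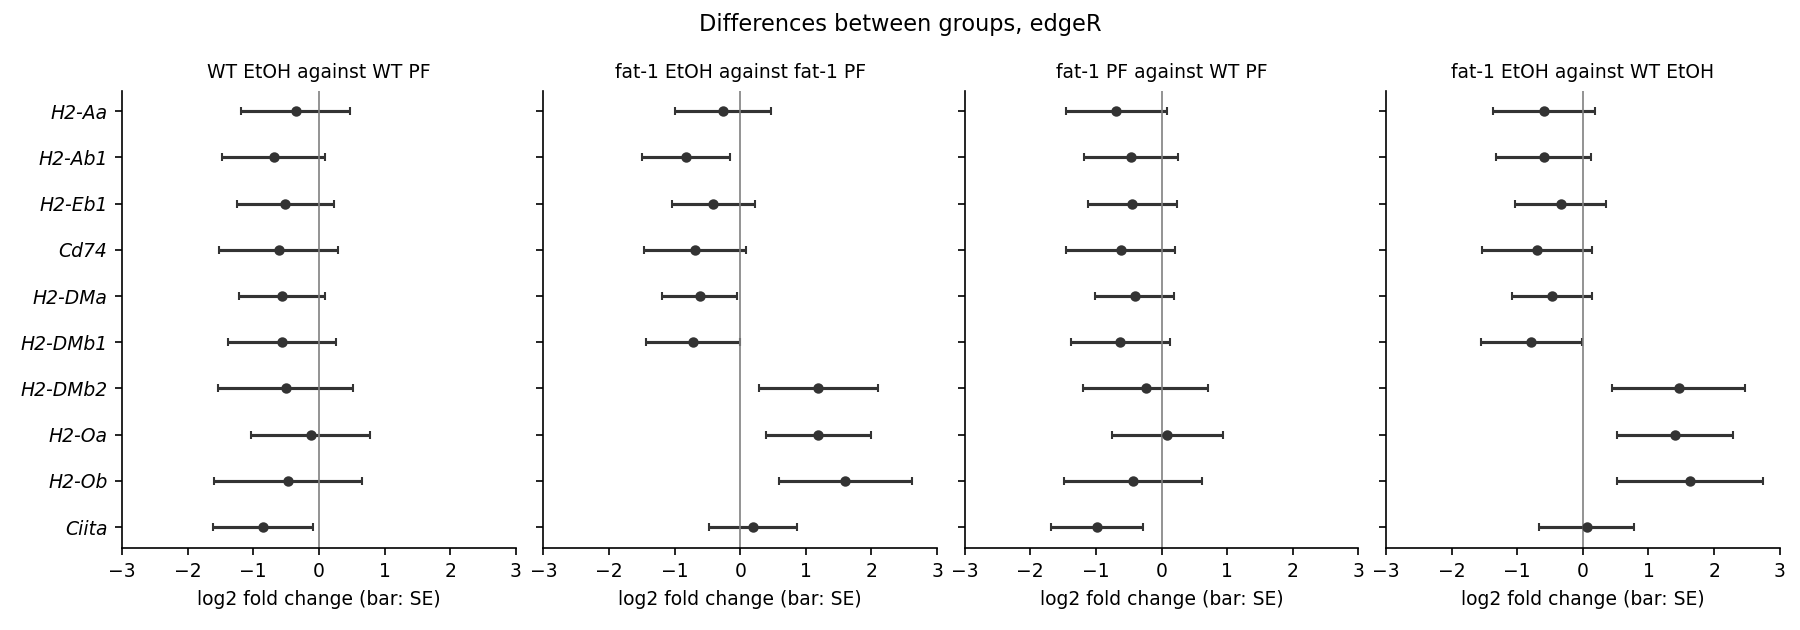
Log2 fold changes (x axis) of the 10 class II genes in the 4 comparisons of 2 groups, with bars for the SE of the edgeR fit. All 10 values lie below 0 in WT EtOH against WT PF mice. Those of H2-DMb2, H2-Oa and H2-Ob lie above 0 in both comparisons that involve fat-1 EtOH mice, as do, by less, those of Ciita (0.20 and 0.06). Fat-1 EtOH mouse 5 was the highest mouse in each of these genes.

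Over the 16 mice the 10 genes fell roughly into 2 patterns, a split made after their values were seen. H2-Ab1 correlated with Cd74 (Pearson r = 0.996 of log2 CPM), H2-DMa (0.994), H2-Eb1 (0.992), H2-DMb1 (0.986) and H2-Aa (0.972). Among the 13810 other genes tested these were the 5 most like H2-Ab1, and Ciita (0.939) came next. H2-DMb2 ranked 1805, H2-Ob 2125 and H2-Oa 3153 in the same order, with r of 0.589, 0.552 and 0.436. For deviations from the group means these r were higher, at 0.714, 0.694 and 0.681, so that the split was weaker. Ciita was closer to these genes than H2-Ab1 was, with r of 0.723, 0.695 and 0.624. For deviations the r of Ciita with them were 0.825, 0.800 and 0.846. Outside the 10, the genes most like H2-Ab1 were Itgam (0.909), Cdkn2aipnl (0.905), Gnai2 (0.902), Skil (0.900) and Nxf7 (0.899). For H2-Ob the most alike was H2-DMb2 (0.993), followed outside the 10 by Siglecg (0.988), Bank1 (0.985), Fcrla (0.983) and Chst3 (0.980), of which Fcrla was among the B cell markers. These correlations share the libraries and their depth, and a few mice with extreme values (fat-1 EtOH 3, 4 and 5) carry much of them.

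**Figure D4:**
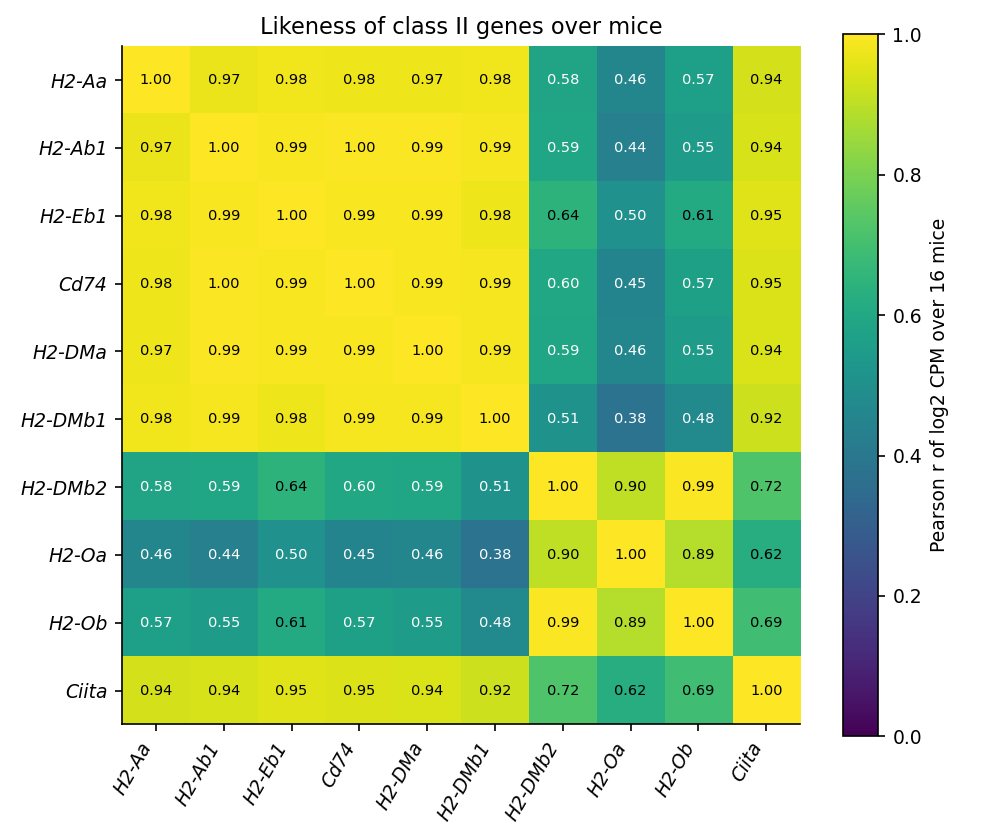
Pearson r of log2 CPM over 16 mice between each pair of the 10 class II genes (colour scale from 0 to 1, value in each cell). H2-Aa, H2-Ab1, H2-Eb1, Cd74, H2-DMa, H2-DMb1 and Ciita form 1 block with r of 0.923 to 0.996, and H2-DMb2, H2-Oa and H2-Ob form another with r of 0.889 to 0.993. Between the blocks, Ciita has r of 0.624 to 0.723 and H2-Ab1 r of 0.436 to 0.589.

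Ratios within a mouse, which are free of library size, showed the split only in part. Per 100 reads of H2-Ab1 there were 77.6 to 155 reads of H2-Aa, a 2.00-fold range over mice whose H2-Ab1 level itself differed 24.4-fold. Cd74 ran from 166 to 309 and H2-DMb1 from 7.29 to 14.6 reads per 100 of H2-Ab1. Ciita ran from 3.26 reads per 100 of H2-Ab1 in fat-1 PF mouse 3 to 11.5 in fat-1 EtOH mouse 5. For H2-Aa, H2-Eb1, Cd74, H2-DMa and H2-DMb1 the range of these ratios was at most 2.24-fold. The inhibitor of H2-DM ranged further, since H2-Ob ran from 3.93 reads per 100 of H2-DMa in WT EtOH mouse 3 to 117 in fat-1 EtOH mouse 5, a 29.7-fold range. H2-Oa ran from 2.54 to 30.4 reads per 100 of H2-DMa, an 11.97-fold range. H2-Ob and H2-Oa, placed in 1 pattern above, also ranged widely against each other. H2-Ob ran from 58.3 reads per 100 of H2-Oa in fat-1 EtOH mouse 4 to 796 in WT PF mouse 4, a 13.6-fold range. These rest on 7 and 12 reads of H2-Ob and H2-Oa in the first mouse and 183 and 23 in the second.

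The neighbouring copies of the H2-DM beta gene also varied against each other from mouse to mouse. Of the reads of both copies, H2-DMb2 took 2.22% in WT EtOH mouse 3 (exact 95% interval 1.34 to 3.44%) and 51.1% in fat-1 EtOH mouse 2 (44.4 to 57.8%). It took 5.13 to 11.6% in WT PF mice and 39.2% (36.8 to 41.7%) in fat-1 EtOH mouse 5. The intervals cover counting error only, and they place these mice apart. Of the 75-base windows of their transcripts, H2-DMb1 shares 15.8% with H2-DMb2, and H2-DMb2 shares 16.2% with H2-DMb1 and other genes, so that some reads could have been lost or assigned to the other copy. H2-DMa shares 7.46% of its windows with Brd2 on the opposite strand, and Ciita 0.765% with Dexi. H2-Oa shares 11.8% with the antisense gene BC051537. The use of strand in the counting is not given in the sources used here.

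H2-Ob followed the B cell gene Cd79a in both diets. Over the 16 mice Pearson's r was 0.962 and Spearman's rho 0.956, each with a permutation p of 1e-05, the smallest that 100000 permutations can give (adjusted p = 3.5e-05 over 7 relations). Within the 8 PF mice r was 0.903 (rho 0.976, permutation p = 0.00124) and within the 8 EtOH mice 0.977 (rho 0.952, permutation p = 0.000645), and without fat-1 EtOH mice 3 and 4 the pooled r was 0.967. H2-Ab1 and Cd79a had a pooled r of 0.679 (permutation p = 0.00523, adjusted p = 0.00523, rho 0.271 with permutation p = 0.309) that rested on fat-1 EtOH mice 3 and 4, since it was 0.125 without them. Within PF mice it was 0.184 (permutation p = 0.731, rho 0.0476) and within EtOH mice 0.776 (permutation p = 0.024, rho 0.524), or 0.227 without those 2. WT EtOH mouse 3 shows the contrast, with Cd79a at 2.86 CPM and H2-Ob at 2.10 CPM beside H2-Ab1 at 482 CPM, and fat-1 PF mouse 2 shows it too, with 2.39, 3.09 and 345 CPM.

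**Figure D5:**
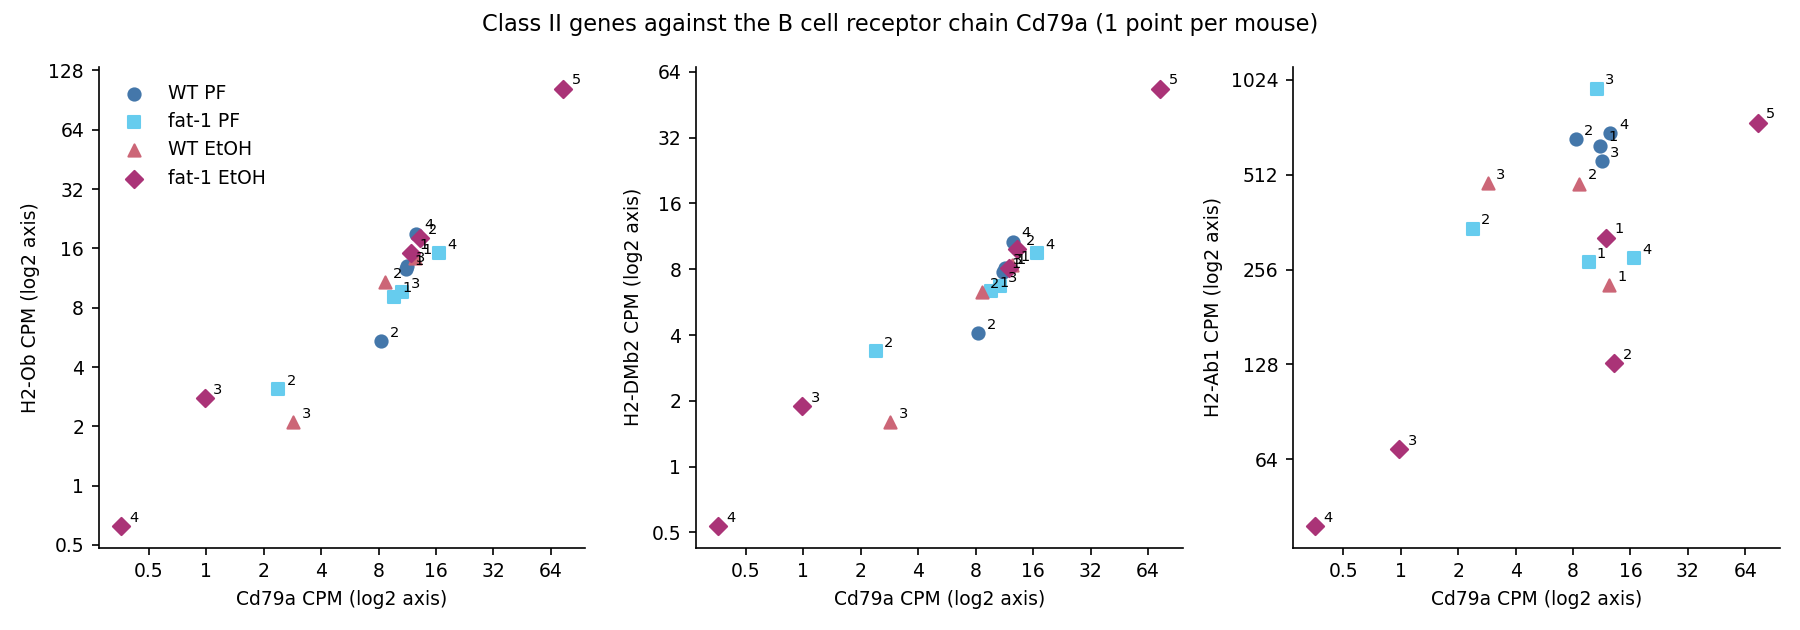
CPM of H2-Ob, H2-DMb2 and H2-Ab1 (y axes, log2) against CPM of Cd79a (x axes, log2), with 1 point per mouse marked by group and number. H2-Ob and H2-DMb2 rise with Cd79a from fat-1 EtOH mouse 4 to fat-1 EtOH mouse 5, whereas H2-Ab1 ranges from 129 to 961 CPM among mice with Cd79a between 8.26 and 16.7 CPM.

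The other relations had unlike values in the diets, a difference that was not tested. Ciita and H2-Ab1 had a pooled r of 0.939 (rho 0.912, permutation p = 1e-05, adjusted p = 3.5e-05), with 0.963 in EtOH mice (permutation p = 5e-05) and 0.761 in PF mice (permutation p = 0.0376, adjusted p = 0.0877), and the pooled r was 0.838 without fat-1 EtOH mice 3 and 4. In PF mice rho was 0.5 (permutation p = 0.216) and r 0.578 without fat-1 PF mice 2 and 4, and in EtOH mice rho was 0.976 (permutation p = 0.000397) and r 0.906 without fat-1 EtOH mice 3 and 4. The epithelial gene Epcam and H2-Ab1 had an r of 0.909 within PF mice (permutation p = 0.00246, adjusted p = 0.00861, rho 0.810 with permutation p = 0.0218) and 0.825 without fat-1 PF mice 3 and 4. Within EtOH mice that r was 0.600 (permutation p = 0.114, rho 0.310 with permutation p = 0.462), and it turned to -0.844 without fat-1 EtOH mice 3 and 4. Over all mice it was 0.721 (permutation p = 0.00287, rho 0.456 with permutation p = 0.0786), or 0.194 without fat-1 EtOH mice 3 and 4. For the macrophage gene Csf1r and H2-Ab1 r was -0.465 in PF and 0.825 in EtOH mice (permutation p = 0.247 and 0.00652, rho -0.0714 and 0.738 with permutation p = 0.882 and 0.0458). It was 0.334 in PF mice without fat-1 PF 2 and 4, and 0.528 in EtOH mice without fat-1 EtOH 4 and 5. Over all mice it was 0.681 (permutation p = 0.00449, rho 0.576 with permutation p = 0.0207), or 0.382 without fat-1 EtOH 4 and 5. For Cd79a and Ciita it was 0.389 in PF (permutation p = 0.412, rho 0.405) and 0.863 in EtOH mice (permutation p = 0.00779, rho 0.548), and 0.575 in EtOH mice without fat-1 EtOH 3 and 4.

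Genes around class II presentation were compared by lists chosen by name. In WT EtOH against WT PF mice edgeR called none of them. In fat-1 EtOH against fat-1 PF mice, 1 of 12 genes of class II transcription rose and 2 fell, with a median log2 fold change of 0.00 beside 0.05 over all genes. Rfx5, a subunit of the X box factor RFX, was at 9.12, 9.97, 6.97 and 12.2 CPM in fat-1 PF and 11.2, 11.3, 13.4, 15.2 and 23.7 CPM in fat-1 EtOH mice, and rose by 0.65 ± 0.23 on the log2 scale (adjusted p = 0.0374 in edgeR). Rfxank, another RFX subunit, was at 28.8, 43.8, 26.8 and 38.5 against 17.2, 22.03, 23.1, 28.3 and 20.9 CPM (-0.63 ± 0.15, adjusted p = 0.00606 in edgeR). Nfyc, a subunit of the Y box factor NF-Y, was lower in fat-1 EtOH than in fat-1 PF mice (-0.42 ± 0.11). Rfxap, the remaining RFX subunit, was at 9.96, 11.1, 12.4 and 13.4 against 12.3, 9.44, 9.92, 9.10 and 8.38 CPM and did not pass the test.

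Of 13 tested genes of peptide loading and proteases, 1 rose and 3 fell, with a median of -0.17. Ctsz, a lysosomal cathepsin, was at 260.4, 415, 294 and 421 CPM in fat-1 PF and 157, 143, 97.02, 110.2 and 195 CPM in fat-1 EtOH mice (-1.31 ± 0.20, adjusted p = 0.000431 in edgeR). Lamp1, a lysosome membrane protein, fell by 0.68 on the log2 scale, and Ctsl, which cuts the invariant chain in some cells, rose by 0.64. Ctsl was highest in fat-1 EtOH mice 3 and 4 (139 and 132 CPM). Of 10 genes of class II turnover and costimulation, March8, a ubiquitin ligase that removes class II molecules from the surface, was the one that changed, and it fell by 0.49 (adjusted p = 0.00358 in edgeR), while the median of the 10 was 0.64. March8 was at 132, 138, 138, 137 and 116 CPM in fat-1 EtOH and 164, 226, 166 and 187 CPM in fat-1 PF mice.

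Of 18 tested interferon-gamma genes 1 rose and 6 fell in fat-1 EtOH against fat-1 PF mice, with a median of -0.22. The counts of this list and of those before and after it stand beside the 37.4% of all genes called in this comparison, and nothing particular to these lists is read from them. The immunoproteasome subunit Psmb8 was at 79.8, 229, 146 and 161 CPM in fat-1 PF and 96.5, 49.8, 29.5, 32.7 and 145 CPM in fat-1 EtOH mice (-1.12 ± 0.41, adjusted p = 0.0457 in edgeR). Psmb9 fell by 0.99 and Psmb10 by 0.96 on the log2 scale. Of 9 class I genes 4 fell and 0 rose, with a median of -0.61. The class I chain H2-K1 was at 1283, 2735, 1978 and 2776 against 1129, 1059, 787, 911 and 1372 CPM (-1.06 ± 0.22, adjusted p = 0.00217 in edgeR). B2m, the light chain of class I, fell by 0.98 and Tapbp, which helps load it, by 0.84. H2-K1 and B2m were lowest in fat-1 EtOH mice 3 and 4. H2-Eb2, a further class II beta gene, was at 3.39, 0.561, 3.42 and 3.93 CPM in fat-1 PF and 3.04, 5.70, 0.656, 0.268 and 24.4 CPM in fat-1 EtOH mice and did not pass the test (1.26 ± 1.02). Like H2-Ob, it was highest in fat-1 EtOH mouse 5. Ifi30, H2-Ea and H2-Ea-ps were not analysed here.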

How the data were processed

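Terminal ileum RNA of 16 mice was sequenced from poly(A)-selected, dUTP-stranded libraries. The authors aligned the reads with tophat2 to mm10, guided by Ensembl transcripts, and deposited raw counts of reads per Ensembl gene made with htseq, without normalization. Its settings are not given in the sources used here. Symbols, positions and exon lengths came from GENCODE M21 (GRCm38), and promoter sequences from RefSeq.

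The tests used edgeR 4.0.16 in R 4.3.3: filterByExpr on the 4 groups, TMM scaling and a robust quasi-likelihood fit of 1 mean per group over all 16 libraries, with Benjamini-Hochberg adjustment over the 13811 genes tested and a limit of 0.05. The authors' own test, cuffdiff2, works from aligned reads, which were not used here. CPM are over TMM-adjusted library sizes, and log2 CPM have a prior count of 2. Correlations were tested with 100000 permutations in scipy 1.17.1. The script was tested on simulated data. Figures were drawn with matplotlib 3.10.9.

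All 10 class II genes are named. From each list of related genes, up to 3 genes with the largest change among those called in fat-1 EtOH against fat-1 PF mice are named, with the 5 genes most like H2-Ab1 and H2-Ob, apart from 1 gene and 1 relation that are not reported here. Rfxap, H2-Eb2 and the region and B cell markers given by mouse were chosen after their values were seen. The class II genes and all lists were chosen with earlier results of these data known. Alternatives tried were DESeq2 1.42.0 (Wald test), its size factors in edgeR, no filter, a fit of only the groups compared, a replicate block, the B cell marker level as a covariate, and leaving out mice singly or in sets. The transgene was not analysed here, so that the genotype labels were not checked. No libraries had identical counts, and the counts of every pair within a group differed by more than sampling noise.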

Additional observations from a re-analysis of the deposited data

Results flagged for a closer look

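A mouse stood far from its group in 9 of the 30 sets of values examined (10 genes in the 3 groups of 4 or 5 mice), by Dixon's ratio of the gap to the range at the 95% level. Chance flags about 1 in 20 groups, and because the class II genes move together these are not 9 separate observations.

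Fat-1 PF mouse 3 stood apart in H2-Aa (1054 CPM, next highest 268 CPM), H2-Ab1 (961 CPM, next 345 CPM), Cd74 (2457 CPM, next 783 CPM), H2-DMb1 (106 CPM, next 31.3 CPM) and Ciita (31.3 CPM, next 21.2 CPM). Fat-1 EtOH mouse 5 stood apart in H2-DMb2 (53.7 CPM, next 9.87 CPM), H2-Oa (27.0 CPM, next 4.68 CPM), H2-Ob (104 CPM, next 18.1 CPM) and Ciita (86.2 CPM, next 23.2 CPM). Ciita was thus the gene with a far mouse in both fat-1 groups. The B cell markers of fat-1 PF mouse 3 summed to 76.7 CPM, within the range of the other PF mice, and those of fat-1 EtOH mouse 5 to 812 CPM.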

How the results depend on the processing

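Of 780 values of single class II genes under the alternatives in the comparisons described gene by gene, 743 kept their direction and their side of the threshold, 29 turned direction and 8 became DEGs. The count of DEGs among the 10 genes, 0 with all mice, became 1 (Ciita) in WT EtOH against WT PF mice when only those groups were fitted (8.32% of all genes called). In fat-1 EtOH against fat-1 PF mice it became 1 (H2-Ab1) with the B cell covariate (41.1% of all genes called), 3 (H2-DMb2, H2-Oa, H2-Ob) without fat-1 EtOH mice 3 and 4 (30.8%), and 1 (H2-Ob) without these and WT EtOH mouse 2 (29.7%). It was 0 to 2 when mice were left out singly, with 2 without fat-1 EtOH mouse 5 (37.2%). For the diet difference averaged over genotypes it was 2 (Ciita and H2-Ab1) with the replicate block (35% of all genes called), 1 (Ciita) without fat-1 EtOH mice 3, 4 and 5 (29.1%, chosen after seeing the data), and 0 to 3 when mice were left out singly, with 3 (Ciita, H2-Ab1 and H2-DMa) without fat-1 EtOH mouse 5 (36.7%). Apart from the fit of 2 groups alone, these counts were not above the share of all genes called.

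With the B cell covariate, H2-Aa and H2-Oa turned to 0.15 and 0.16 in WT EtOH against WT PF mice, H2-DMb2 and Ciita to -0.22 and -0.70 in fat-1 EtOH against fat-1 PF mice, and H2-DMb2 and H2-Ob to 0.36 and 0.19 in fat-1 PF against WT PF mice. In fat-1 EtOH against fat-1 PF mice, with the replicate block H2-DMb2 was -0.52, H2-Oa -0.47, H2-Ob -0.20 and Ciita -1.11. Fat-1 EtOH mouse 5 is the single mouse with that number, so that the block takes up its values by construction. Same-numbered mice were not more alike (mean correlation of deviations -0.0225 over 21 pairs, 0.00703 over 74 others), so that the numbers do not pair the mice. In the same comparison without fat-1 EtOH mice 3 and 4, H2-Aa was 0.37 and H2-Eb1 0.22, without WT EtOH mouse 2 as well they were 0.37 and 0.21, and without fat-1 EtOH mice 3, 4 and 5 Ciita was -0.28. The cause of these shifts was not tested.

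With mice left out singly, H2-Oa ran from -0.43 to 0.20 and H2-Ob from -0.97 to 0.01 in WT EtOH against WT PF mice, and H2-Oa from -0.11 to 0.38 in fat-1 PF against WT PF mice. In fat-1 EtOH against fat-1 PF mice the range was -1.27 to 0.61 for H2-Aa, -1.29 to 0.11 for H2-Eb1, -1.72 to 0.01 for Cd74, -1.62 to 0.05 for H2-DMb1, -0.33 to 1.5 for H2-DMb2, -0.34 to 1.47 for H2-Oa and -1.0 to 0.47 for Ciita. DESeq2, its size factors and the absence of a filter turned no direction and made no class II gene a DEG. At the lowest level, 6 reads of H2-DMb2 in fat-1 EtOH mouse 4, depth limits the value.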
